A study of Capra hircus with 6 samples.

Results

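DDX5, DDX39B and XPO1 are 3 genes of RNA handling in the nucleus, a pair of DEAD-box RNA helicases and a nuclear export receptor. They were chosen by name, with earlier results of these data known, and are 3 of the 5154 genes in the deposited table of goat 8-cell embryos. All 3 had lower FPKM in every library of YBX1 knockdown embryos than in any control library. The table holds only genes that the authors had called as differing between the same groups, so that a difference between the groups was given by their presence in it. The levels, their spread, their ratios and their place among the other genes of the table are described here.

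DEAD-box helicases are enzymes that use ATP to separate short RNA duplexes and to remodel complexes of RNA and protein. DDX5 takes part in transcription, splicing and microRNA processing. DDX39B acts in spliceosome assembly, and as a subunit of the TREX complex it helps to load export factors onto spliced mRNA. XPO1, an exportin, carries proteins with a leucine-rich export signal and some classes of RNA through the nuclear pore together with the GTPase Ran. YBX1 is an RNA-binding protein with a cold shock domain. In early embryos, transcripts stored by the oocyte are degraded while the embryonic genome starts to be transcribed.

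Goat zygotes were microinjected either with a negative control siRNA or with 20 µM of siRNA to deplete YBX1, cultured in vitro, and lysed as 8-cell embryos 72 h later. Each group had 3 libraries, called controls 1 to 3 and knockdown libraries 1 to 3. They were made with Smart-seq2, which amplifies full-length cDNA from little RNA and has no molecular identifiers. The comparison asks which transcripts differ when YBX1 is depleted. The methods give 30 embryos of each kind in 3 pooled replicates, which does not settle how many embryos a library holds. The libraries may be parts of a pool, and the p-values measure the spread between these libraries, which may be technical. The table names genes by Ensembl identifier, and a symbol could be paired with 456 of them (8.85%). The pairs came from the study's list of skipped exon events that differed between the same groups. Every gene measured here by name was thus also selected for a splicing difference. YBX1 had no such pairing, and a check of the labels by the level of the targeted gene was not possible; YBX1 was not analysed here.

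FPKM is the number of fragments scaled to the length of the gene and to the total of the library, so that levels of different genes can be compared per length. The fragments behind each value could be recovered as whole numbers. The control totals were 10354990, 12192458 and 11052666, and the knockdown totals 12098896, 11203666 and 12688297, in the order of the replicate numbers. The genes of the table took 51.0%, 56.9% and 48.6% of these totals in the control libraries and 35.4%, 36.9% and 38.8% in those with knockdown. A gene was called lower or higher when limma gave a Benjamini-Hochberg adjusted p under 0.05 and the change on the log2(FPKM + 1) scale was larger than 1 in size. Tests covered the 4500 genes that had at least 1 FPKM on average. All 3 genes passed this filter, and each was above 1 FPKM in all 6 libraries.

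Control 3 stood apart from the other controls, and the log2 fold changes of the 3 genes and the changes of their ratios are given with and without it. It was the lowest control in 1395 of the 2530 genes called lower (55.1%), compared with 1747 of all 4500 genes tested (38.8%). Its log2(FPKM + 1) value differed from the mean of controls 1 and 2 by a median of -0.41 in the genes called lower and of -0.01 in all genes tested. For XPO1 this difference was -2.22, and 2.21% of the genes called lower had a more negative one. For DDX5 it was -1.47, with 9.88% of those genes more negative. For DDX39B it was -0.38, with 52.0% more negative, near the median of the genes called lower and below that of all genes tested. Control 3 was the lowest control in each of the 3 genes, and its gap was wider in XPO1 and DDX5 than in DDX39B.

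Single markers of the oocyte and of cumulus cells also set control 3 apart from the other controls. Of 14 oocyte and early embryo markers, 4 could be measured, and their summed FPKM was 299, 223 and 710 in controls 1, 2 and 3 and 1050, 1454 and 959 in knockdown libraries 1, 2 and 3. The most abundant was H1-8, the linker histone of the oocyte, with 252, 194 and 680 FPKM in the controls and 963, 1393 and 859 FPKM after knockdown. Control 3 thus lay between the other controls and the knockdown libraries in this gene, which made up most of the sum. LHX8 had 23.8, 12.3 and 16.8 FPKM in controls 1, 2 and 3, with control 3 between the other two. PATL2 had 2.93, 2.78 and 4.19 FPKM in them, far below its knockdown mean of 25.3 FPKM. H1-8, PATL2 and LHX8 were called higher, with log2 fold changes of 1.70, 2.63 and 1.42, and of 2.24, 2.77 and 1.40 without control 3. LHX8 was not called when knockdown library 3 was left out (1.14). TAF4B had 19.8, 13.6 and 8.67 FPKM in controls 1, 2 and 3 and between 6.06 and 7.70 FPKM after knockdown, with control 3 again the control nearest to the knockdown libraries. It was not called (-0.90, limma adjusted p = 0.0561), but passed as lower without control 3 (-1.18). Of 11 markers of cumulus or granulosa cells, only TNFAIP6 could be measured, and it had 1.73, 2.38 and 20.5 FPKM in the controls and between 2.14 and 2.37 FPKM after knockdown. TNFAIP6, made by cumulus cells around ovulation, was thus high in control 3 alone, and its groups overlapped. Its log2 fold change was -0.85 (limma adjusted p = 0.220), and 0.09 without control 3. None of the 6 sperm markers could be measured, and the other markers of each list were not analysed here. The part of these differences in the levels below was not tested.

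DDX5 was the most abundant of the 3 genes in each library. Its FPKM (ENSCHIG00000011800) was 798, 523 and 233 in controls 1, 2 and 3 and 147, 184 and 147 in knockdown libraries 1, 2 and 3. The controls spread widely, the highest being 3.43 times the lowest, while the knockdown libraries lay within 1.25 times of each other. The groups did not overlap, and control 3 was 1.27 times the highest knockdown library. The mean was 518 ± 283 FPKM in the controls and 159 ± 21.3 FPKM after knockdown (SD, n = 3 each), a ratio of 3.26. DDX5 fell by 1.53 on the log2 scale (standard error 0.48, 95% interval -2.57 to -0.49, limma adjusted p = 0.0103). An exact permutation test over the 6 libraries gave p = 0.1 (two-sided), the smallest p that 3 libraries against 3 allow. Without control 3 the log2 fold change was -2.02, and without control 1, the library with the most DDX5, it was -1.14 and was no longer called (limma adjusted p = 0.0552). Fewer cells that contain a transcript and less of it per cell cannot be told apart in such libraries.

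Many fragments stood behind each value of DDX5. Its length of 5131 bases held 42411, 32729 and 13202 fragments in controls 1, 2 and 3 and 9120, 10560 and 9544 in the knockdown libraries. In control 1 DDX5 took 0.410% of all fragments (95% Wilson interval 0.406% to 0.413%), and in control 3 it took 0.119% (0.117% to 0.122%). In knockdown library 2, the highest of its group, the share was 0.0943% (0.0925% to 0.0961%). The intervals of control 3 and knockdown library 2 did not meet. Such intervals hold counting error alone, because reads amplified by PCR do not stand for separate molecules. The coefficient of variation between libraries was 54.6% in the controls and 13.4% after knockdown, and counting error was at most 1.05% in any library.

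DDX39B had the narrowest spread of the 3 genes among the controls and the widest after knockdown. Its FPKM (ENSCHIG00000004579) was 55.3, 51.7 and 40.9 in controls 1, 2 and 3 and 18.0, 15.8 and 26.7 in knockdown libraries 1, 2 and 3. Knockdown library 3 was the highest of its group, and the groups did not overlap. The lowest control was 1.53 times the highest knockdown library, a wider gap than that of DDX5 or XPO1. The mean was 49.3 ± 7.49 FPKM in the controls and 20.2 ± 5.72 FPKM after knockdown (SD, n = 3 each), a ratio of 2.44. DDX39B fell by 1.27 on the log2 scale (standard error 0.39, 95% interval -2.12 to -0.42, limma adjusted p = 0.00976). The exact permutation test again gave p = 0.1. Leaving out any library kept this call, with log2 fold changes from -1.48 to -1.12, and without control 3 the value was -1.40. The call was lost under each of the 3 scalings between libraries given below, with log2 fold changes from -0.80 to -0.30.

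DDX39B rested on fewer fragments than DDX5. Its 1611 bases held 922, 1015 and 728 fragments in controls 1, 2 and 3 and 351, 286 and 545 in the knockdown libraries. Counting error was thus 5.91% in knockdown library 2, below the coefficient of variation of 28.4% between the knockdown libraries and that of 15.2% between the controls. With a floor of 3 fragments, DDX39B was detectable from 0.180 FPKM in the shallowest library, far below its levels. In the goat RefSeq annotation of assembly ARS1.2, a newer one than the authors used, the gene overlaps MCCD1, and whether the authors counted by strand is not given in the sources used here. Reads from overlapping genes could then not be told apart. DDX5 and DDX39B also have close paralogs, DDX17 and DDX39A, which were not analysed here. The authors counted only reads mapped to a single place. Whether reads alike in these paralogs affect the levels of both helicases was not tested.

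XPO1 had the largest fold change of the 3 genes and the widest spread among the controls. Its FPKM (ENSCHIG00000018132) was 118, 172 and 29.9 in controls 1, 2 and 3 and 23.7, 18.1 and 14.6 in knockdown libraries 1, 2 and 3. Controls 1 and 2 were far above all other libraries, and control 3 was only 1.26 times the highest knockdown library. Without control 3, the lower of the other two was 4.98 times the highest knockdown library. The mean was 107 ± 71.8 FPKM in the controls and 18.8 ± 4.60 FPKM after knockdown (SD, n = 3 each), a ratio of 5.68. XPO1 fell by 2.15 on the log2 scale (standard error 0.58, 95% interval -3.41 to -0.88, limma adjusted p = 0.00539). The groups did not overlap, and the exact permutation test gave p = 0.1. Without control 3 the log2 fold change was -2.88 (limma adjusted p = 0.000581), and without control 2, the library with the most XPO1, it was -1.64 (limma adjusted p = 0.0316).

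Counting error of XPO1 was at most 4.10% in any library. Its 3216 bases held 3932, 6748 and 1062 fragments in controls 1, 2 and 3 and 922, 652 and 595 in the knockdown libraries. Control 3 had 0.00961% of its fragments in XPO1 (95% Wilson interval 0.00905% to 0.0102%), and knockdown library 1 had 0.00762% (0.00714% to 0.00813%). These intervals did not meet, but they leave out the spread between libraries. The coefficient of variation between libraries was 67.3% in the controls and 24.5% after knockdown.

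**Figure D1:**
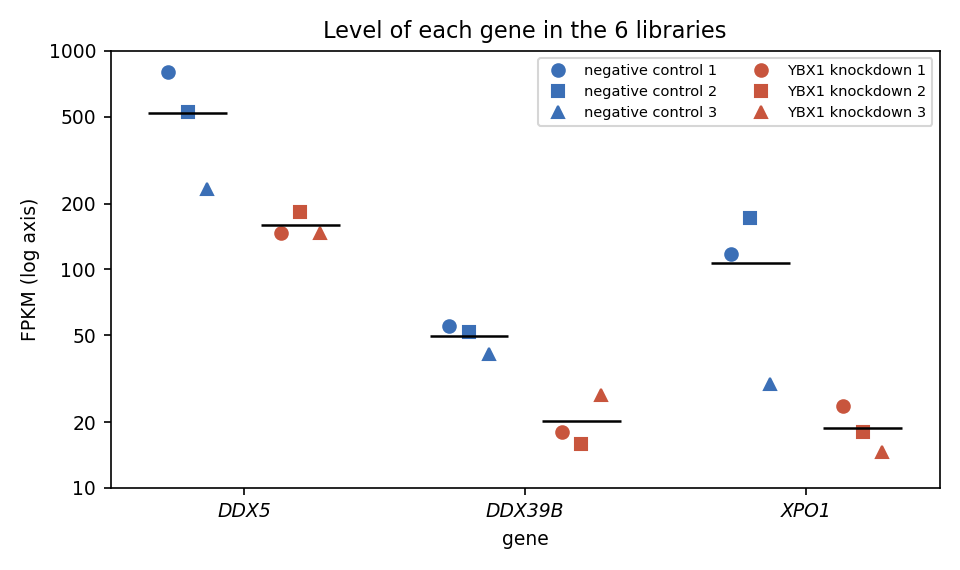
FPKM of DDX5, DDX39B and XPO1 in each of the 6 libraries, on a log axis, with controls in blue, YBX1 knockdown libraries in red, replicate numbers as circles, squares and triangles, and black lines at the group means (n = 3 each). Every knockdown library lies below every control in each gene, and control 3 (blue triangle) lies nearest to the knockdown libraries.

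All 3 genes were called lower, as were 56.2% of the 4500 genes tested, while 34.1% were called higher. In 57.8% of the genes tested every knockdown library was below every control, as in these 3. With such shares in a table of genes selected for a difference, the count of 3 is no result about the 3 genes. The sizes of the changes can be placed among the others. Of the 2951 genes with a log2 fold change below 0, 36.4% had a more negative one than XPO1, 62.0% than DDX5 and 74.7% than DDX39B. With all 6 libraries, XPO1 thus lay among the larger falls of the table, and the helicases among the smaller ones. Without control 2 XPO1 and DDX5 lay closer together, at -1.64 and -1.44. Without control 3 they lay further apart, at -2.88 and -2.02.

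The calls of both helicases rested on the scaling between libraries. The median log2 fold change of all genes tested was -1.24, from which XPO1 differed by -0.91, DDX5 by -0.30 and DDX39B by -0.03. Single libraries moved these differences. That of XPO1 was -1.54 without control 3 and -0.48 without control 2. That of DDX5 was -0.68 without control 3 and 0.05 without control 1, and so changed side. That of DDX39B was -0.05 without control 3, -0.22 without knockdown library 3 and 0.11 without knockdown library 2. The treatment of low genes, which moves the median, mattered as well. With a pseudocount of 0.1 DDX39B was at 0.17 and DDX5 at -0.06, and with no filter on low FPKM they were at -0.19 and -0.45. XPO1 was at -0.71 and -1.06 under these settings. Scaling each library to the same FPKM sum raised this median by 0.59, quantile normalization by 0.75 and scaling by the median of ratios by 0.85. The 2530 lower and 1534 higher genes became 1669 lower and 1571 higher with the same sum, 1422 and 1590 with quantile normalization, and 1350 and 1574 with the median of ratios. These scalings were computed from called genes, most of them lower, and so could take part of a difference between the groups as scale. Whether they did was not tested. DDX5 and DDX39B had log2 fold changes below 0 but were not called under any of the scalings. XPO1 was called with the same sum (-1.45, limma adjusted p = 0.0388) and with quantile normalization (-1.63, limma adjusted p = 0.0226), but not with the median of ratios (-1.17, limma adjusted p = 0.0699). Relative to the median of all genes, XPO1 was at -0.81, -1.15 and -0.79 under the same sum, quantile normalization and median of ratios. DDX39B was at 0.06, -0.32 and 0.08 relative to that median, and so changed side with the scaling too.

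A ratio of genes within a library does not depend on a scaling that multiplies the whole library by a factor, as the same sum and the median of ratios do, but can change under quantile normalization. The 3 ratios were compared on FPKM as deposited. The ratio of XPO1 to DDX5 FPKM was 0.148, 0.329 and 0.128 in controls 1, 2 and 3 and 0.161, 0.0985 and 0.0995 in knockdown libraries 1, 2 and 3. Control 2 was the highest, and the groups overlapped, since knockdown library 1 was above controls 1 and 3. The log2 ratio changed by -0.66 (95% interval -2.00 to 0.68), with an exact permutation p of 0.3 (adjusted over the 3 ratios 0.45), where 3 libraries against 3 cannot go below 0.1 and so cannot pass 0.05. Without control 3 the change was -0.92, and without control 2 it was -0.24. XPO1 was thus lower after knockdown by more than DDX5 in the means, in groups that overlapped and with an interval that included 0.

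The ratio of XPO1 to DDX39B was 2.14, 3.33 and 0.731 in controls 1, 2 and 3 and 1.32, 1.14 and 0.547 in knockdown libraries 1, 2 and 3. XPO1 was therefore the more abundant of this pair per length in controls 1 and 2 and in knockdown libraries 1 and 2, and DDX39B in control 3 and knockdown library 3. The order of these neighbouring levels did not hold over the libraries of either group. The log2 ratio changed by -0.89 (95% interval -2.99 to 1.22, exact permutation p = 0.3, adjusted 0.45), and by -1.51 without control 3. It was -0.42 without control 2 and -0.50 without knockdown library 3. The ratio of DDX5 to DDX39B was 14.4, 10.1 and 5.69 in controls 1, 2 and 3 and 8.16, 11.6 and 5.50 in knockdown libraries 1, 2 and 3. The groups overlapped over most of their range, and the library numbered 3 was the lowest of each. The log2 ratio changed by -0.23 (95% interval -1.61 to 1.16, exact permutation p = 0.7, adjusted 0.7), and by -0.59 without control 3. It was above 0 without control 1 (0.08) and without knockdown library 3 (0.05).

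**Figure D2:**
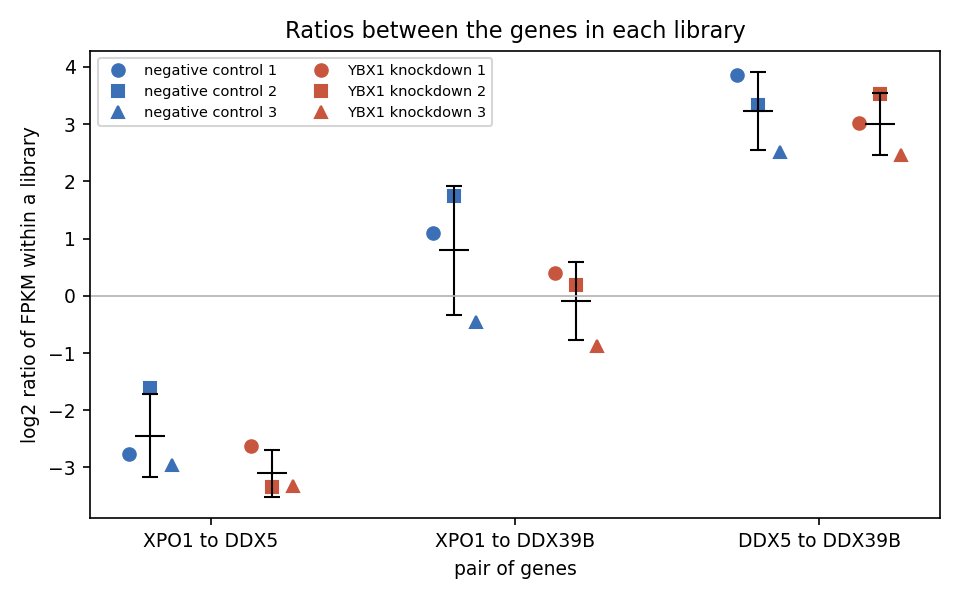
Log2 ratio of FPKM within each library for the 3 pairs of genes, with controls in blue, YBX1 knockdown libraries in red, replicate numbers as circles, squares and triangles, and black bars at the mean ± SD (n = 3 each). The groups overlap in each pair, and the changes of the means are -0.66, -0.89 and -0.23.

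Few other DEAD-box helicases could be measured, and their median was close to that of the table. Of 34 further family members listed, 5 were in the table with a symbol, of which 4 were called lower and none had a log2 fold change above 0, with a median log2 fold change of -1.17 beside the -1.24 of all genes tested. With 56.2% of all genes tested called lower, 4 of 5 says little about the family. DDX55, a helicase of ribosome assembly, had the largest fall, from 46.5 ± 14.2 to 9.99 ± 3.60 FPKM (SD, n = 3 each). It fell by 2.12 on the log2 scale (limma adjusted p = 0.00132), and it was the only 1 of the 5 that was called under the scalings, in each of the 3. DDX6, which acts in mRNA decay and storage, had -1.47 (limma adjusted p = 0.0103) and was called with each library left out in turn, but under none of the scalings, with -0.60 under the median of ratios as the weakest. DDX20, part of the SMN complex that assembles splicing particles, had -1.17 (limma adjusted p = 0.0200). EIF4A2, a translation initiation factor, had -1.14 (limma adjusted p = 0.0369), and its groups overlapped, with control 3 at 133 FPKM and knockdown library 1 at 144 FPKM. Without control 3, EIF4A2 was at -1.65, DDX6 at -1.83, DDX20 at -1.47 and DDX55 at -2.10. DDX20 and EIF4A2 were not called without control 1, without control 2 or without knockdown library 2, which left 2 of the 5 called in each case, and EIF4A2 was also lost without knockdown library 3. DDX52 was not called (-0.85, limma adjusted p = 0.0559), but passed without control 3 (-1.06), which made 5 of 5. With the median of ratios its log2 fold change was 0.12.

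Of 32 listed genes of mRNA export besides DDX39B, 2 could be measured, and 1 was called lower, where 56.2% of all genes tested were. CHTOP, a cofactor of the TREX complex, had 195, 184 and 252 FPKM in controls 1, 2 and 3 and 27.1, 57.0 and 53.8 FPKM in knockdown libraries 1, 2 and 3. The groups were far apart, and control 3 was here the highest control. CHTOP fell by 2.23 on the log2 scale (standard error 0.42, limma adjusted p = 0.000919). It was at -2.09 without control 3 and was called under each of the scalings, with -1.24 under the median of ratios as the weakest. NXT2, a partner of the mRNA export receptor, was not called, with 25.4 ± 7.25 FPKM in the controls and 14.4 ± 1.19 FPKM after knockdown (SD, n = 3 each). The value on the log2 scale was -0.74 (limma adjusted p = 0.0869) and came to 0.21 with the median of ratios. Of 35 other karyopherins and genes of the Ran cycle, which are the nearest in function to XPO1, none could be measured in the table, and they were not analysed here.

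Nuclear pore genes, whose products form the channel that XPO1 passes, moved in both directions. Of 30 listed, 5 could be measured, 4 of them called lower and 1 higher, with a median log2 fold change of -1.67. Of all genes tested, 56.2% were called lower and 34.1% higher, with a median of -1.24, so that both directions are common in the table. AHCTF1, which starts pore assembly on chromatin, had the largest fall, with 83.5, 51.3 and 21.2 FPKM in controls 1, 2 and 3 and 4.08, 6.01 and 5.78 FPKM in knockdown libraries 1, 2 and 3. Its log2 fold change was -2.89 (standard error 0.50, limma adjusted p = 0.000634). NUP50, a mobile pore protein of the nuclear side, had -2.36, NUP98 had -1.67, and RANBP2, a large protein of the cytoplasmic filaments, had -1.29. RANBP2 was not called without control 1, without control 2 or without knockdown library 2. SEH1L, a subunit of the pore scaffold, rose instead, with 54.6, 43.9 and 119 FPKM in controls 1, 2 and 3 and 266, 143 and 182 FPKM in knockdown libraries 1, 2 and 3. Its log2 fold change was 1.52 (limma adjusted p = 0.00951), with control 3 the control nearest to the knockdown libraries. Under the same sum and the median of ratios, AHCTF1 and NUP50 were called lower and NUP98 and RANBP2 were not, with their log2 fold changes below 0, while SEH1L was called higher under each of the scalings. With quantile normalization AHCTF1, NUP50 and NUP98 (-1.12, limma adjusted p = 0.0421) were called lower, and RANBP2 was not. Without control 3, all 4 were called lower, AHCTF1 at -3.42, NUP50 at -2.72, NUP98 at -2.12 and RANBP2 at -1.76, and SEH1L higher (1.94).

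**Figure D3:**
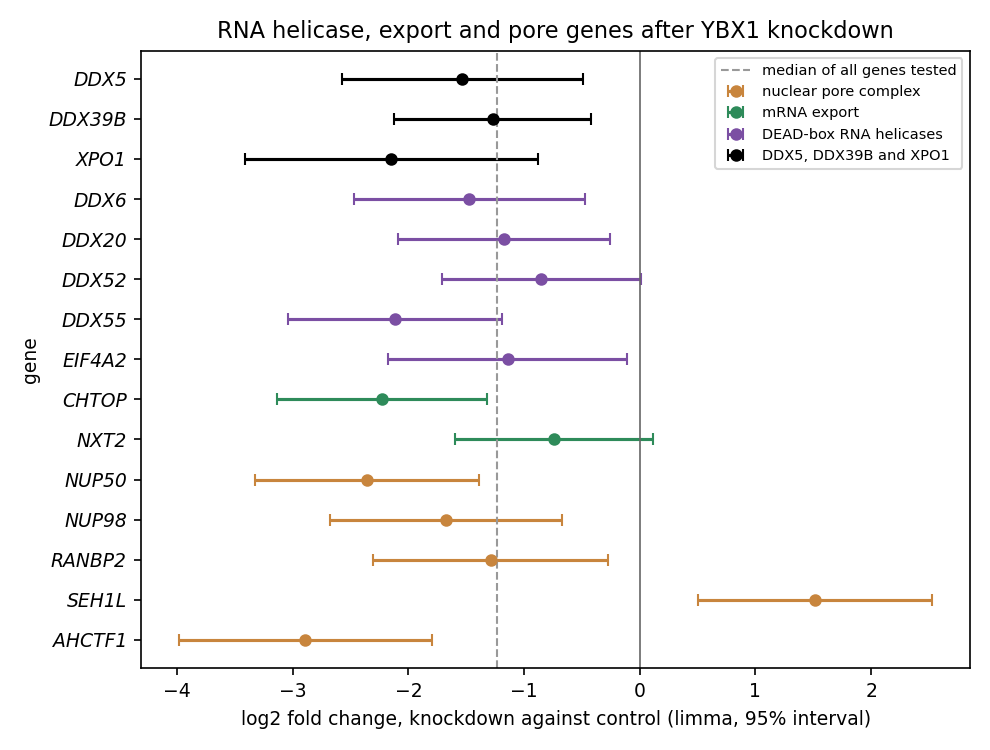
Log2 fold change, YBX1 knockdown against control on the log2(FPKM + 1) scale, of DDX5, DDX39B and XPO1 (black) and of the measured DEAD-box helicases (purple), mRNA export genes (green) and nuclear pore genes (orange), with 95% intervals from limma and a dashed line at -1.24, the median of all genes tested. SEH1L is above 0, the others are below, and DDX52 and NXT2 have intervals that include 0 and lie above 0 with median of ratios scaling.

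The genes with a pattern most like each of the 3 were found among the 455 other genes with a symbol, by the root mean square difference of log2(FPKM + 1) over the 6 libraries after each gene was centred on its own mean. Genes without a symbol were compared in the same way but cannot be named, and 12 of them were nearer to XPO1, 3 nearer to DDX5 and 0 nearer to DDX39B than the nearest gene with a symbol. Before the third gene with a symbol, 34 of them were nearer to XPO1, 30 to DDX5 and 6 to DDX39B. For XPO1 they were EP300 (0.28), DBF4 (0.34) and MAT2A (0.35), where the median gene was at 0.91. EP300 had 90.4, 90.5 and 17.6 FPKM in controls 1, 2 and 3 and 15.4, 17.2 and 8.27 FPKM in knockdown libraries 1, 2 and 3. It shared with XPO1 the low control 3, close to the knockdown libraries. For DDX5 the nearest were YLPM1 (0.15), SMNDC1 (0.21) and PPP4R3A (0.24), with the median gene at 0.70. SMNDC1, a splicing factor to which 20 genes without a symbol were preferred in likeness to DDX5, had 413, 359 and 190 FPKM in controls 1, 2 and 3. It had 95.4, 143 and 103 FPKM in knockdown libraries 1, 2 and 3. Its order among the controls was that of DDX5, and in each of the 2 genes knockdown library 2 was the highest of its group.

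For DDX39B the nearest were TXNL1 (0.08), HSF2 (0.12) and DRG1 (0.13), with the median gene at 0.60. HSF2 was a low gene, with at least 1.68 FPKM in each control and at most 0.568 FPKM in each knockdown library. The log2(FPKM + 1) scale understates the change of such a gene. The nearness of HSF2 to DDX39B therefore depends on the pseudocount of 1, and likeness without it was not tested. TXNL1 had 43.6, 38.1 and 32.3 FPKM in controls 1, 2 and 3 and 14.7, 10.8 and 21.6 FPKM in knockdown libraries 1, 2 and 3, and repeated the order of DDX39B within each group. Between the 3 genes the difference was 0.51 for DDX5 and DDX39B, 0.56 for DDX5 and XPO1, and 0.86 for DDX39B and XPO1. Among the 455 genes ordered by likeness to XPO1, DDX5 was at rank 47 and DDX39B at rank 194. In the order for DDX5, DDX39B was at rank 125 and XPO1 at rank 148. In that for DDX39B, DDX5 was at rank 181 and XPO1 at rank 297, beyond the median gene. The measure takes in the contrast between the groups, for which the genes of the table had been selected, as well as the differences within them.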

How the data were processed

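RNA of 6 libraries of goat 8-cell embryos was measured, 3 controls and 3 with YBX1 knockdown, grouped by their titles. The authors used HISAT2 to align reads to goat assembly ARS1 and featureCounts to count those mapped to a single place. The deposited values are FPKM. Beside them the deposited table holds the authors' DESeq2 results, a log2 fold change with its p-value and the adjusted one, used here only to test which genes it holds. All 5154 genes passed 0.05 and a change of 1 in these columns, 3531 down and 1623 up, so adjusted p-values and shares of calls are shaped by that selection. A table of every gene had been assumed when the tests were chosen.

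Symbols came from 1130 identifiers paired with a symbol in the study's supplementary list of differential skipped exon events, of which 456 are in the table. Genes with a symbol are thus a selected part of the table. Whether this affects how they compare with all genes tested was not tested. Fragments were recovered as whole numbers (largest distance 0.000627) and used for depth, shares and floors only. FPKM were tested with limma 3.58.1 in R 4.3.3 (lmFit, eBayes with trend) on log2(FPKM + 1), which understates the change of low genes, over genes whose mean reached 1 FPKM, and p-values were adjusted by Benjamini-Hochberg. Ratios took no pseudocount and were tested by exact permutation, two-sided, computed with numpy 2.4.6 and scipy 1.17.1. The recovery and the fit were tested on simulated data. The recovery returned the totals of all 6 simulated libraries and 98.67% of the counts. With a dispersion between libraries of 0.05, the fit called 100 of 100 genes changed by -2.5 and 95 of 100 changed by -1.5. With 0.2 it called 77 and 26, and so missed most changes of -1.5. Few genes were changed in the simulation, whereas most genes of the table were called.

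Named genes are the 3 members, of each pathway list the genes with the lowest and highest fold change and those not called, and for each member the 3 most similar profiles among genes with a symbol. Other genes of these lists, and all measured markers, were named after their values were seen. The members and lists were chosen with earlier results of these data known. Alternatives were a pseudocount of 0.1, no filter, a mean FPKM of at least 5, 3 scalings, a replicate block, eBayes without trend, no fold minimum, for ratios a pseudocount of 1, and each library left out.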

Additional observations from a re-analysis of the deposited data

How the results depend on the processing

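With the same FPKM sum, median of ratios and quantile normalization, the log2 fold change was -0.82, -0.54 and -0.81 for DDX5 and -0.58, -0.30 and -0.80 for DDX39B, none of them called. That of XPO1 was -1.17 and not called with the median of ratios. Of all genes tested, 1669 of 4454, 1350 of 4402 and 1422 of 4486 were called lower under these scalings, in the same order. Of the 3 genes, 1, 0 and 1 were called under them, and of the 5 other DEAD-box helicases 1, 1 and 1. Of the 5 nuclear pore genes, 2, 2 and 3 were called lower under the same scalings. Beside the shares of all genes, such small counts are no result about the lists. The cause of the lost calls was not tested. With each library left out, DDX5 ranged from -2.02 to -1.14, XPO1 from -2.88 to -1.64, the helicases called from 2 to 5, and the change of the log2 ratio of DDX5 to DDX39B from -0.589 to 0.083, above 0 without control 1 (0.083) and knockdown library 3 (0.048). The call held in 11 of 15 alternatives for DDX5, 12 for DDX39B and 14 for XPO1, and several alternatives leave the fold change as it is by construction. Samples of the groups shared replicate numbers, and same-numbered libraries correlated by 0.095, 0.14 and 0.163 in their deviations over the 4500 genes. Each library correlated best with its own number. These correlations were small, and deviations from a mean of 3 libraries depend on each other. They cannot settle whether the libraries were paired, and the design does not state a pairing. With the replicate block, DDX5, DDX39B and XPO1 kept -1.53, -1.27 and -2.15 and their calls, and 2542 genes were lower and 1535 higher. Depth did not limit the 3 genes, which had at least 286 fragments in each library.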
